A study of Homo sapiens with 12 samples.

Results

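Genes of the glucose-sensing and α-arrestin system were followed in TIGK cells, and they were read from the table of raw counts by their symbols. They are TXNIP, ARRDC1, ARRDC2, ARRDC3, ARRDC4, MLX, MLXIP, and MLXIPL, 8 of the 58735 genes in the table. TIGK cells are human gingival keratinocytes that were transfected with hTERT, the catalytic subunit of telomerase, to make them immortal, so all values come from a single line. In the control groups, the cells were kept at 48 mM glucose with no added L-Arginine (Arg) for 24 or 48 h. In the Arg groups, 500 μM Arg was present at the same glucose concentration for the same times. Every group had 3 libraries (replicates A, B, and C), 12 in all. The base medium held no Arg of its own, and all groups also received insulin, glutamine, lysine, epinephrine, TGF-α, transferrin, hydrocortisone, and pituitary extract. Low-glucose cells were not analysed here, so every difference below was measured at high glucose. The labels do not say that replicates were independent cultures, so the p-values cover only the spread between these libraries, which may be technical.

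MLXIP (MondoA) and MLXIPL (ChREBP) are transcription factors that sense sugar phosphates made from glucose. They bind DNA as dimers with MLX, at paired E-box-like motifs known as carbohydrate response elements. TXNIP and ARRDC4 are the classical target genes of this system. TXNIP binds and inhibits thioredoxin and promotes the removal of glucose transporters from the cell surface. The protein belongs to the α-arrestins, together with ARRDC1 to ARRDC4, which act as adaptors that bring membrane proteins to ubiquitin ligases of the NEDD4 family. In many cell types TXNIP rises when glucose is plentiful and restrains proliferation.

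In the deposited table, on GRCh38, the α-arrestin genes lie as follows. The minus strand holds TXNIP (ENSG00000265972) at chr1:145992435-145996600 and ARRDC3 (ENSG00000113369) at chr5:91368724-91383359, and the plus strand holds ARRDC1 (ENSG00000197070) at chr9:137605654-137615360, ARRDC2 (ENSG00000105643) at chr19:18001132-18014102, and ARRDC4 (ENSG00000140450) at chr15:97960698-97973838. Of the factors, the plus strand holds MLX (ENSG00000108788) at chr17:42567068-42573239 and MLXIP (ENSG00000175727) at chr12:122078722-122147347, and the minus strand holds MLXIPL (ENSG00000009950) at chr7:73593194-73624543. Counts were summed over the exons of each gene, so no transcript form is told apart.

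The promoters of 3 of the genes are shown, because TXNIP and ARRDC4 were lower with Arg at 24 h and ARRDC3 was not. Each sequence is the part of the RefSeq promoter window (GRCh38.p14) that lies before both the RefSeq start and the edge of the gene in the deposited table, on the strand of the gene. Capitals mark matches to CACGTG, the E-box, or to the arms CACGNG and CNCGNG with any 5 bases between them, a tandem form of the carbohydrate response element.
TXNIP (chr1:145996601-145996829, minus strand): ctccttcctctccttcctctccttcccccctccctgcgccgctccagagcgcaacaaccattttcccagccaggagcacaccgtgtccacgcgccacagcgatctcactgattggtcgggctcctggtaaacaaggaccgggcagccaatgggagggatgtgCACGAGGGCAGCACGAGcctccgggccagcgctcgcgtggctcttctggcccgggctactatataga
ARRDC4 (chr15:97960453-97960697, plus strand): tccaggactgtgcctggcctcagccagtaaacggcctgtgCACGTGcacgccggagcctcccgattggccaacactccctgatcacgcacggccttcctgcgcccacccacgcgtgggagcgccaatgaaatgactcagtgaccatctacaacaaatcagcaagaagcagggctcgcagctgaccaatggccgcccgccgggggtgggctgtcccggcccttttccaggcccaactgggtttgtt
ARRDC3 (chr5:91383360-91383567, minus strand): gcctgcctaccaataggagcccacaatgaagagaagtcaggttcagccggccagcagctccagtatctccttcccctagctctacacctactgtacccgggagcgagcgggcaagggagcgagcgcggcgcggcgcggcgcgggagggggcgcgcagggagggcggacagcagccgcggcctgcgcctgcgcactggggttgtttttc

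The 250 bases before each start were searched on both strands for these patterns and for CCAAT, the NF-Y motif. The tandem pattern was found in TXNIP alone among the 8 genes, as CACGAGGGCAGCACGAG, beginning 88 bases before the start. It occurs in 0.424% of the 35116 promoters in the RefSeq table. The E-box could overlap the tandem pattern, but did not in these windows. CACGTG, which 6.34% of promoters hold, was found in ARRDC4, 210 bases before the start, and in MLX, 50 bases before the start. CCAAT occurs in 32% of promoters. There were 2 matches in the TXNIP window that holds the tandem pattern and 3 matches in ARRDC4. ARRDC1, ARRDC3, MLX, and MLXIP held 1 match each, and ARRDC2 held 1 in the window of a further start. MLXIPL held 0, so CCAAT does not set TXNIP and ARRDC4 apart. TXNIP, ARRDC2, and ARRDC3 each have another start in the RefSeq table, and its window held neither E-box pattern. These matches describe letters in the window only, and no binding was measured. Other forms of the carbohydrate response element and bases outside these windows were not searched. A gene without a match is therefore not shown to lack such an element.

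The libraries held between 16542243 and 19040964 counts. All 9 keratinocyte markers listed had at least 10 counts in every library, with KRT5 between 445199 and 589709 counts. Of 16 markers of leukocytes, endothelial cells, melanocytes, and fibroblasts, LYZ and TYR had 0 counts in every library and PTPRC had at most 8. The summed level of these 16 genes was 35.8 to 57.0 CPM (counts per 1000000 after TMM normalization) in the 24 h control, 33.0 to 44.3 CPM in the 24 h Arg group, 90.7 to 106 CPM in the 48 h control, and 76.9 to 104 CPM in the 48 h Arg group, and most of it came from DCN and COL1A1. Control replicate B at 48 h stood apart. Its counts differed from those of replicates A and C with a chi-square per degree of freedom of 20.9 and 23.9, against 3.66 between A and C, and 1.55% of its counts came from mitochondrial genes, against 0.906% and 0.707%. For TXNIP it lay below all 3 Arg libraries of the same time and for ARRDC3 above them, away from both other controls, and whether its label is right was not tested. The main tests that use this library are therefore given with and without it or over each library left out, while the likeness of profiles kept it. This library was singled out partly by its TXNIP and ARRDC3 values, and dropping it left only replicates A and C as 48 h controls. The p-values without it are therefore descriptions, not independent tests of these genes.

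Per kilobase of exonic length, the only scale on which levels of different genes are compared here, TXNIP was the most abundant of the 8 transcripts in the 24 h control. It stood at 34.2 ± 5.15 CPM per kilobase (SD, n = 3), ahead of MLX at 17.1 ± 1.45, ARRDC1 at 14.9 ± 1.15, ARRDC4 at 7.30 ± 0.395, MLXIP at 5.85 ± 0.192, ARRDC2 at 3.25 ± 0.137, ARRDC3 at 1.52 ± 0.716, and MLXIPL at 0.105 ± 0.0311. No neighbours in this order overlapped between libraries. In the 24 h Arg group, TXNIP no longer stood apart. MLX at 14.7 ± 0.401, TXNIP at 13.8 ± 0.795, and ARRDC1 at 13.3 ± 1.01 CPM per kilobase overlapped, each with its neighbour in the order. At 48 h, MLX, ARRDC1, and TXNIP again overlapped in the Arg group, between 11.1 and 14.2 CPM per kilobase. In the 48 h control, TXNIP had the highest mean, 21.2 ± 9.68 CPM per kilobase, but its libraries overlapped those of ARRDC1. The overlap came from replicate B alone, in which TXNIP lay below every ARRDC1 library of this group. In replicates A and C, TXNIP stood at 27.1 and 26.5 CPM per kilobase, above the highest ARRDC1 library at 15.8. Of the glucose-sensing pair, MLXIP exceeded MLXIPL in every group. MLXIPL had between 3 and 43 counts per library, which leaves its differences poorly resolved.

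**Figure D1:**
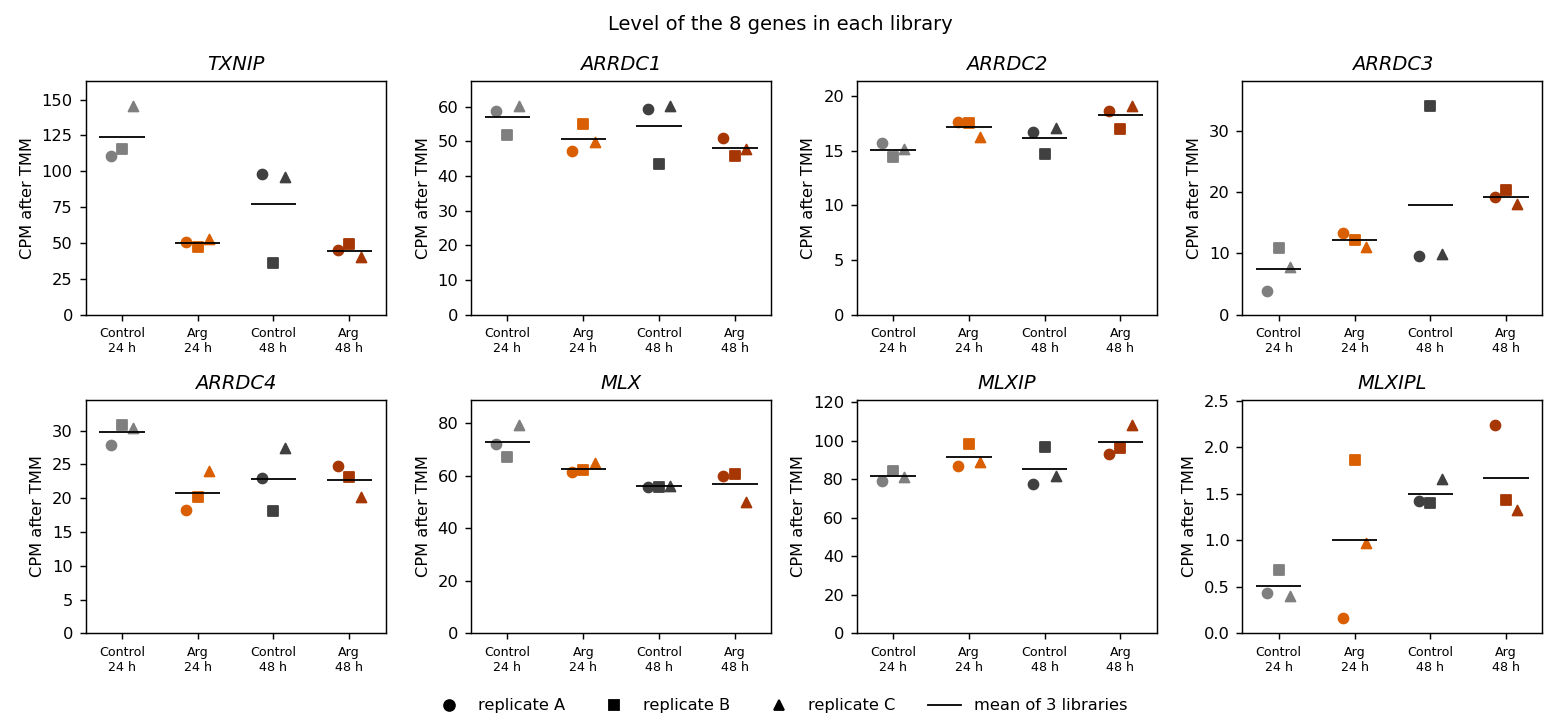
Level of each of the 8 genes in the 12 libraries, in CPM after TMM normalization on a linear axis that starts at 0. Points are libraries, with the shape giving the replicate, and bars are the means of 3 libraries. TXNIP lies between 46.9 and 52.6 CPM in the 24 h Arg group and between 111 and 145 CPM in the 24 h control, and control replicate B at 48 h (36.4 CPM) lies below all Arg libraries.

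At 24 h, the question was how Arg changed these genes. TXNIP, the thioredoxin inhibitor, fell most clearly. It stood at 111, 116, and 145 CPM in control replicates A, B, and C and at 50.9, 46.9, and 52.6 CPM in the Arg replicates. The groups were far apart, with every Arg library under the lowest control library. By edgeR, the log2 fold change was −1.31 with a standard error (SE) of 0.10 and an adjusted p of 6.49e-07, a level 2.48-fold lower, and TXNIP ranked 7 by p among the 14279 genes tested. ARRDC4, its closest partner as a target of the glucose-sensing factors, fell less. It stood at 27.9, 30.9, and 30.4 CPM in the control and at 18.3, 20.2, and 24.0 CPM with Arg, without overlap. Its log2 fold change was −0.51 (SE 0.12, adjusted p = 0.0135), a level 1.43-fold lower. The call for ARRDC4 was lost without control replicate C (adjusted p = 0.0507) and without Arg replicate B (adjusted p = 0.0711), with log2 fold changes of −0.50 in both. In these cultures, fewer cells with a transcript and less of it per cell cannot be told apart.

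Thus 2 of the 8 genes were lower with Arg at an adjusted p under 0.05, where 3.84% of all tested genes were, and 0 were higher, where 2.79% of all tested genes were. At an unadjusted p under 0.05, edgeR gave 3 lower genes (TXNIP, ARRDC4, and MLX) against 11.9% of all genes and 1 higher gene (ARRDC3) against 10.8%. All 8 genes passed the filter on low counts. MLXIPL, with 3 to 32 counts at 24 h, passed through the 3 libraries with 12 or more counts.

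ARRDC3, an adaptor that brings integrin β4 to degradation, had higher values with Arg at 24 h but did not pass the adjusted test. It stood at 3.90, 11.0, and 7.71 CPM in the control and at 13.3, 12.1, and 11.0 CPM with Arg. The lowest Arg library and the highest control library, replicate B, were nearly level, and control replicate A held only 72 counts. The log2 fold change was 0.69 (SE 0.25, adjusted p = 0.100). Without control replicate B it was 1.07 (adjusted p = 0.00457), and without control replicate A it was 0.38 (adjusted p = 0.336). ARRDC3 overlaps the antisense gene ARRDC3-AS1, which held 79 counts over all libraries against 3098 for ARRDC3.

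The other α-arrestins differed little. ARRDC1, which takes part in the release of vesicles from the plasma membrane, stood at 57.0 ± 4.40 CPM in the 24 h control and 50.8 ± 3.87 CPM with Arg (SD, n = 3). Its log2 fold change was −0.17 (SE 0.096, adjusted p = 0.311), and the groups overlapped. ARRDC2 stood at 15.1 ± 0.633 and 17.1 ± 0.771 CPM. Its groups did not overlap, with 0.18 as the log2 fold change (SE 0.12, adjusted p = 0.412). ARRDC1 shares 29 bases with the antisense gene ARRDC1-AS1, which held 1518 counts over all libraries.

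Among the factors themselves, MLX, the obligate partner, stood at 72.2, 67.3, and 79.6 CPM in the 24 h control and at 61.6, 62.1, and 64.8 CPM with Arg. The Arg libraries lay below all controls, but the log2 fold change of −0.22 (SE 0.090) did not pass the adjusted test (adjusted p = 0.153). MLX shares 925 bases with PSMC3IP on the opposite strand, and the strand setting of the counting is not given. MLXIP (MondoA) had 78.8, 84.1, and 81.2 CPM in the control and 86.7, 98.3, and 88.6 CPM with Arg. These groups did not overlap either, with a log2 fold change of 0.16 (SE 0.085, adjusted p = 0.263). MLXIPL (ChREBP) had 8, 12, and 7 counts in the control and 3, 32, and 18 counts with Arg, and its log2 fold change of 0.97 carried a standard error of 0.63 (adjusted p = 0.382). In all, 3 of the 8 genes lay wholly below the controls (13.4% of all genes did) and 3 lay wholly above (12.9% of all genes did). Mitochondrial genes took 1.20 to 1.30% of the counts in the 24 h control and 0.624 to 0.802% with Arg, and 1 of 5 tested markers of other cell types, DCN, and 1 of 9 keratinocyte markers, ITGA6, were lower with Arg (log2 fold change −0.70 and −0.40, adjusted p = 0.0294 and 0.00840). The part of these shifts in the differences above was not tested.

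**Figure D2:**
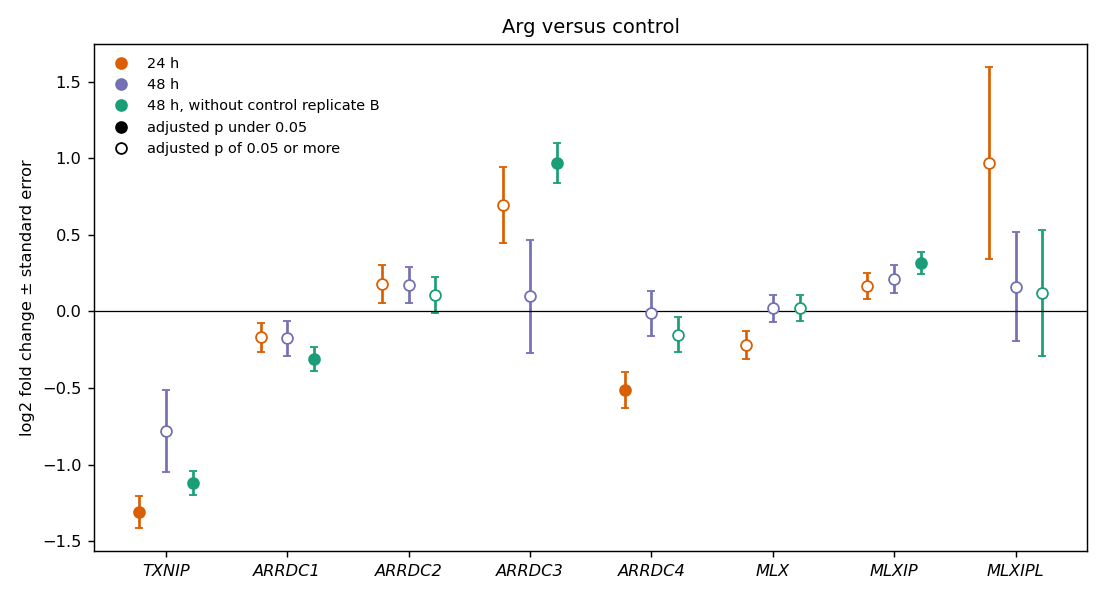
Log2 fold change of Arg versus control for each of the 8 genes at 24 h, at 48 h, and at 48 h without control replicate B, from edgeR, with bars of 1 standard error. Filled points have an adjusted p under 0.05. TXNIP is lower in all 3 comparisons (−1.31, −0.78, and −1.12) and passes in 2 of them, and ARRDC3 reaches 0.97 at 48 h without replicate B.

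At 48 h, 0 of the 8 genes passed the adjusted test in edgeR in either direction, where 0% of the 14562 tested genes were higher and 0.117% were lower. At an unadjusted p under 0.05, TXNIP was lower (7.49% of all genes were) and MLXIP was higher (5.94% of all genes were), and DESeq2 called 0 of the 8 in either direction. In all 8 genes the Arg and control libraries overlapped, where 8.56% of all genes lay wholly above the controls and 8.51% wholly below. TXNIP stood at 98.3, 36.4, and 96.0 CPM in control replicates A, B, and C and at 45.2, 49.0, and 40.2 CPM with Arg. Replicates A and C were well above the Arg libraries, while replicate B was below all 3 of them. The log2 fold change was −0.78 (SE 0.27, adjusted p = 0.241). Without control replicate B it was −1.12 (SE 0.078, adjusted p = 7.62e-10), a level 2.17-fold lower, and TXNIP then ranked 17 by p. Of the 6 fits that each left out 1 library, this was the only 1 in which TXNIP passed. Without replicate B, mitochondrial genes took 0.906% and 0.707% of the counts in the control and 1.14 to 1.31% with Arg, the opposite order to 24 h, and the part of this shift was not tested.

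ARRDC3 was highest in the library in which TXNIP was lowest. It stood at 9.65, 34.0, and 9.97 CPM in the control and at 19.2, 20.4, and 18.1 CPM with Arg. The Arg libraries lay between replicate B on one side and replicates A and C on the other. The log2 fold change was 0.099 (SE 0.37, adjusted p = 0.933) with all libraries. Without replicate B it was 0.97 (SE 0.13, adjusted p = 1.46e-05), and ARRDC3 passed in only this 1 of the 6 fits that each left out 1 library.

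**Figure D3:**
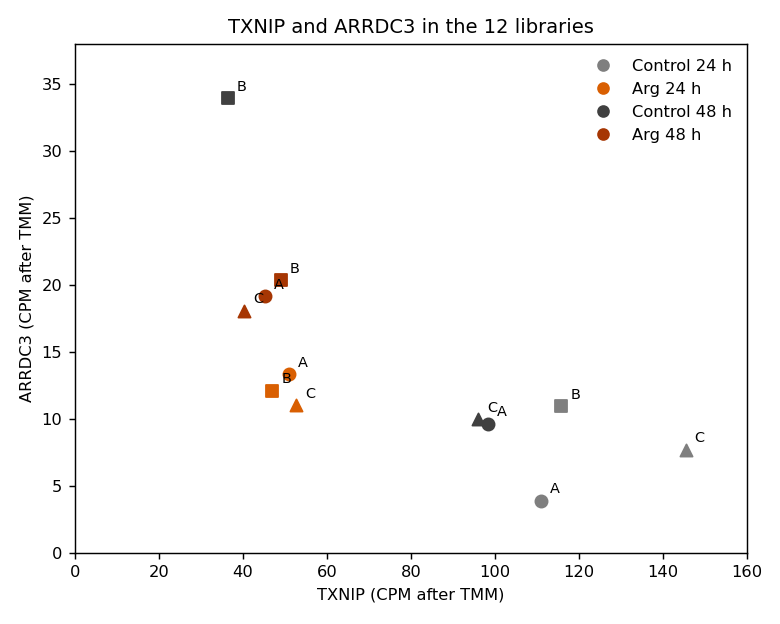
TXNIP (horizontal axis) and ARRDC3 (vertical axis) in each of the 12 libraries, in CPM after TMM normalization, with colour giving the group and letters the replicate. Control replicate B at 48 h lies at 36.4 CPM of TXNIP and 34.0 CPM of ARRDC3, away from control replicates A and C at 98.3 and 96.0 CPM of TXNIP and 9.65 and 9.97 CPM of ARRDC3.

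Leaving out control replicate B at 48 h also altered the calls of 2 more members. ARRDC1 had 59.4, 43.6, and 60.2 CPM in the control and 51.1, 45.8, and 47.8 CPM with Arg, and replicate B was the lowest of the 6. Its log2 fold change went from −0.18 (adjusted p = 0.536) to −0.31 (adjusted p = 0.00712). MLXIP had 77.5, 96.5, and 81.7 CPM in the control and 92.9, 96.2, and 108 CPM with Arg, and replicate B lay inside the Arg range. Its log2 fold change went from 0.21 (adjusted p = 0.337) to 0.31 (adjusted p = 0.00404). Without this library, TXNIP and ARRDC1 were thus lower, where 8.17% of 14854 tested genes were, and ARRDC3 and MLXIP were higher, where 7.76% were. Over all genes, leaving out this library took the calls from 0 higher and 17 lower to 1152 higher and 1213 lower.

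ARRDC4, which fell with Arg at 24 h, showed no such difference at 48 h. It stood at 22.9 ± 4.65 CPM in the control and 22.7 ± 2.31 CPM with Arg (SD, n = 3), and edgeR put its log2 fold change at −0.012 (SE 0.15, adjusted p = 0.978). Without replicate B the log2 fold change was −0.15 (adjusted p = 0.403). MLX stood at 56.0 ± 0.204 and 56.9 ± 5.96 CPM, ARRDC2 at 16.2 ± 1.30 and 18.2 ± 1.10 CPM, and MLXIPL at 1.49 ± 0.147 and 1.67 ± 0.503 CPM in the control and Arg groups. None of these 3 genes passed with or without replicate B.

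The difference between the Arg effects at the 2 times was tested as an interaction over the 12 libraries. None of the 8 genes passed in edgeR at an adjusted p under 0.05, where 0.0132% of 15148 tested genes had a higher effect at 48 h and 0% a lower one. For TXNIP the interaction was 0.53 on the log2 scale (SE 0.31, adjusted p = 0.794). For ARRDC4 it was 0.50 (SE 0.19, unadjusted p = 0.0169, adjusted p = 0.609), the only member with an unadjusted p under 0.05 (3.06% of all genes passed this in the higher direction and 3.80% in the lower). DESeq2 called 0 of the 8 here as well. Without control replicate B at 48 h the interaction of TXNIP was 0.19 and that of ARRDC3 went from −0.59 to 0.27. The fall of ARRDC4 is therefore not shown to be limited to 24 h.

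Over time in culture, the members that passed are given beside the share of all genes that did. These comparisons share libraries with those above. In the control, MLX was lower at 48 h, at 55.9, 55.8, and 56.2 CPM against 72.2, 67.3, and 79.6 CPM at 24 h. Its log2 fold change was −0.38 (SE 0.085, adjusted p = 0.0107), and it was −0.38 without 48 h replicate B too (adjusted p = 0.0134). MLXIPL went from 8, 12, and 7 counts to 27, 27, and 31 counts. It entered the test through the 48 h libraries, so its log2 fold change of 1.55 (SE 0.41, adjusted p = 0.0225, and 0.0231 without a filter) is given as a description, and it was not tested when 10 counts were required in every library. Both calls were lost without 24 h control replicate A (adjusted p = 0.0517 for MLX and 0.106 for MLXIPL) and without replicate C (0.0620 and 0.104), and that of MLXIPL also without 48 h replicate A (0.0626) or C (0.0714). Apart from MLXIPL, 1 of the 8 members passed (MLX, lower), where 19.9% of 14449 tested genes passed in either direction. Over all genes, 1431 were higher and 1451 lower, but 1845 and 1008 when only library size was scaled, and over time with Arg 2060 and 2012 became 2568 and 1453.

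For TXNIP and ARRDC3, the values over the same time depended on replicate B. TXNIP had a log2 fold change of −0.69 (SE 0.27, adjusted p = 0.0931) in the control from 24 to 48 h, and −0.35 without 48 h replicate B (SE 0.11, adjusted p = 0.0357). ARRDC3 had 1.25 (SE 0.46, adjusted p = 0.0741), and 0.39 without that library (SE 0.29, adjusted p = 0.399). Without that library, TXNIP and MLX were lower, where 8.60% of 14749 tested genes were. MLXIPL, again tested through its 48 h counts, had 1.60 (adjusted p = 0.0381), and 7.81% of genes were higher. Without 48 h replicate A or C, the log2 fold change of ARRDC3 was 1.55 or 1.54 and passed (adjusted p = 0.0431 and 0.0349). ARRDC4 had −0.38 (adjusted p = 0.0786), and it passed without 48 h replicate C, at −0.53 (adjusted p = 0.0271). With all libraries kept, ARRDC4 and TXNIP also passed without a filter on low counts (adjusted p = 0.0252 and 1.68e-11), with the replicate block (0.0274 and 0.00428), and with all 12 libraries in 1 model (0.0466 and 0.0257). ARRDC3 passed in 3 of the 7 alternative settings that kept all libraries, and MLXIPL in 5 of the 6 in which it was tested.

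With Arg, ARRDC3 was the member that rose from 24 to 48 h. It went from 13.3, 12.1, and 11.0 CPM to 19.2, 20.4, and 18.1 CPM, without overlap. The log2 fold change was 0.66 (SE 0.12, adjusted p = 0.000506), and the call held with each library left out in turn (adjusted p between 0.000315 and 0.00478). With all 12 libraries in 1 model it was lost (adjusted p = 0.191). TXNIP stood at 50.1 ± 2.88 CPM at 24 h and 44.8 ± 4.42 CPM at 48 h (log2 fold change −0.16, SE 0.091, adjusted p = 0.199). In this comparison 1 member was higher, where 14.3% of 14398 tested genes were, and 0 were lower, where 14.0% were. At an unadjusted p under 0.05, edgeR again gave 1 higher member (19.3% of all genes) and 0 lower (19.2%), and DESeq2 also called 1 and 0. The summed level of markers of other cell types, given above, was also higher at 48 h than at 24 h in both treatments, with 2 of 6 tested markers higher in the control and 3 of 6 with Arg. With Arg, 3 of 9 keratinocyte markers were higher and 3 lower, and mitochondrial genes took 0.624 to 0.802% of the counts at 24 h and 1.14 to 1.31% at 48 h. The part of these shifts in the differences over time was not tested.

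**Figure D4:**
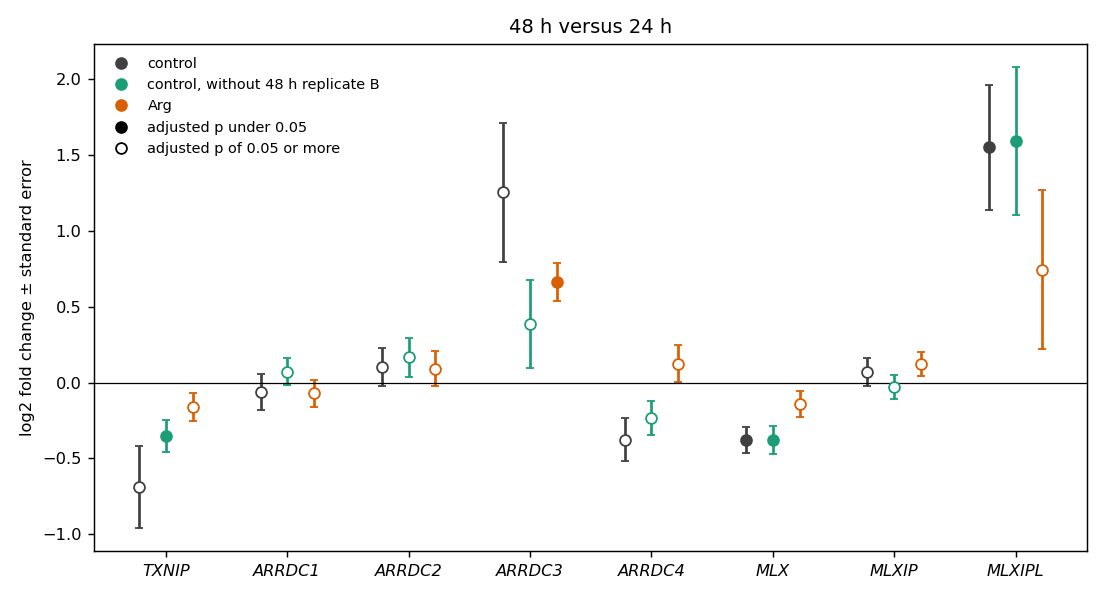
Log2 fold change from 24 to 48 h for each of the 8 genes in the control, in the control without 48 h replicate B, and with Arg, from edgeR, with bars of 1 standard error and filled points for an adjusted p under 0.05. ARRDC3 passes with Arg (0.66), MLX (−0.38) and MLXIPL (1.55) pass in the control, and TXNIP passes in the control without replicate B (−0.35). MLXIPL entered the control tests through its 48 h counts, so its point is a description only.

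The genes around this system were counted in lists, and the values below are for Arg versus control at 24 h. For comparison, 2.79% of all tested genes were higher and 3.84% lower at an adjusted p under 0.05 in edgeR. At an unadjusted p under 0.05, these shares were 10.8% and 11.9%. Of the 9 genes in the list of thioredoxin and TXNIP partners, all 9 were tested and 1 was higher, while 0 were lower (3 at an unadjusted p under 0.05). It was TXNRD1, the cytosolic thioredoxin reductase, at 279 ± 7.67 CPM in the control and 352 ± 54.7 CPM with Arg (log2 fold change 0.33, SE 0.094, adjusted p = 0.0414). Thioredoxin itself, TXN, had −0.13 (adjusted p = 0.402). The median log2 fold change of the list was −0.13, against 0.0030 over all tested genes.

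SLC2A1, the glucose transporter that TXNIP acts on, had a log2 fold change of 0.088 (adjusted p = 0.531). Among the NEDD4 family ubiquitin ligases, 0 of 8 tested genes passed in either direction in edgeR (1 higher and 1 lower at an unadjusted p under 0.05), and 0 of 5 tested genes passed among the other arrestins and arrestin-fold VPS26 proteins (0 and 0). ARRDC5, the remaining α-arrestin, had 0 counts in every library.

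Of 12 tested carbohydrate response targets, 3 were higher and 2 were lower with Arg, with a median log2 fold change of 0.015. Of those that rose, SCD, the stearoyl-CoA desaturase, had a log2 fold change of 0.52 (adjusted p = 0.0110), the elongase ELOVL6 had 0.54 (adjusted p = 0.00351), and the acetyl-CoA carboxylase ACACA had 0.31 (adjusted p = 0.0472). Those that fell were PFKFB3, which makes the activator of phosphofructokinase (−0.61, adjusted p = 0.00806), and the transcriptional repressor BHLHE40 (−0.50, adjusted p = 0.0375). Members of the list thus moved in both directions, while FASN, the fatty acid synthase, had −0.053 (adjusted p = 0.825) and the ATP citrate lyase ACLY had 0.082 (adjusted p = 0.567). KLF10, a transcription factor, had −0.20 (adjusted p = 0.175). Of 8 tested genes of glucose 6-phosphate entry and use, 0 passed in either direction (1 higher and 1 lower at an unadjusted p under 0.05). HK2, a hexokinase that belongs to both lists, had −0.098 (adjusted p = 0.571).

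In the MYC and MAX network, to which MLX belongs, 1 of 11 tested genes was higher and 0 were lower (2 at an unadjusted p under 0.05). MYCL rose from 8.61 ± 0.993 to 14.4 ± 2.74 CPM (log2 fold change 0.74, SE 0.17, adjusted p = 0.0121), while MYC had −0.16 (adjusted p = 0.444). TXNIP is also known as a FOXO-responsive gene. The list of other such genes also held the factors FOXO1, FOXO3, and FOXO4 themselves. Of its 12 tested genes, 1 was higher (IRS2, 0.32, adjusted p = 0.0214) and 2 were lower (CITED2, −0.42, adjusted p = 0.00587, and TRIB1, −0.55, adjusted p = 0.00972). At an unadjusted p under 0.05, 2 of the 12 were higher, FOXO3 among them, and 6 were lower, FOXO1 and FOXO4 among them. The median log2 fold change of the list was −0.18. Of 9 genes in the glucocorticoid list, which also holds the receptor gene NR3C1, 1 was higher and 0 were lower (1 at an unadjusted p under 0.05). It was TSC22D3, also known as GILZ, which rose from 40.7 ± 10.1 to 72.7 ± 3.70 CPM (log2 fold change 0.84, SE 0.13, adjusted p = 0.00100). At 48 h, none of these lists held a gene with an adjusted p under 0.05 in edgeR, and each held 0 to 1 higher and 0 to 2 lower genes at an unadjusted p under 0.05. Among all tested genes, 5.94% were higher and 7.49% lower by the unadjusted p. Without control replicate B at 48 h, the counts of higher and lower genes were 0 and 3 for the thioredoxin list, 3 and 2 for the MYC and MAX network, 2 and 1 for the carbohydrate response targets, 2 and 0 for the FOXO list, 1 and 0 for the glucocorticoid list, 1 and 0 for the NEDD4 family, 1 and 2 for the glucose 6-phosphate list, and 0 and 0 for the other arrestins. These counts are at an adjusted p under 0.05, where 7.76% of all tested genes were higher and 8.17% lower.

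**Figure D5:**
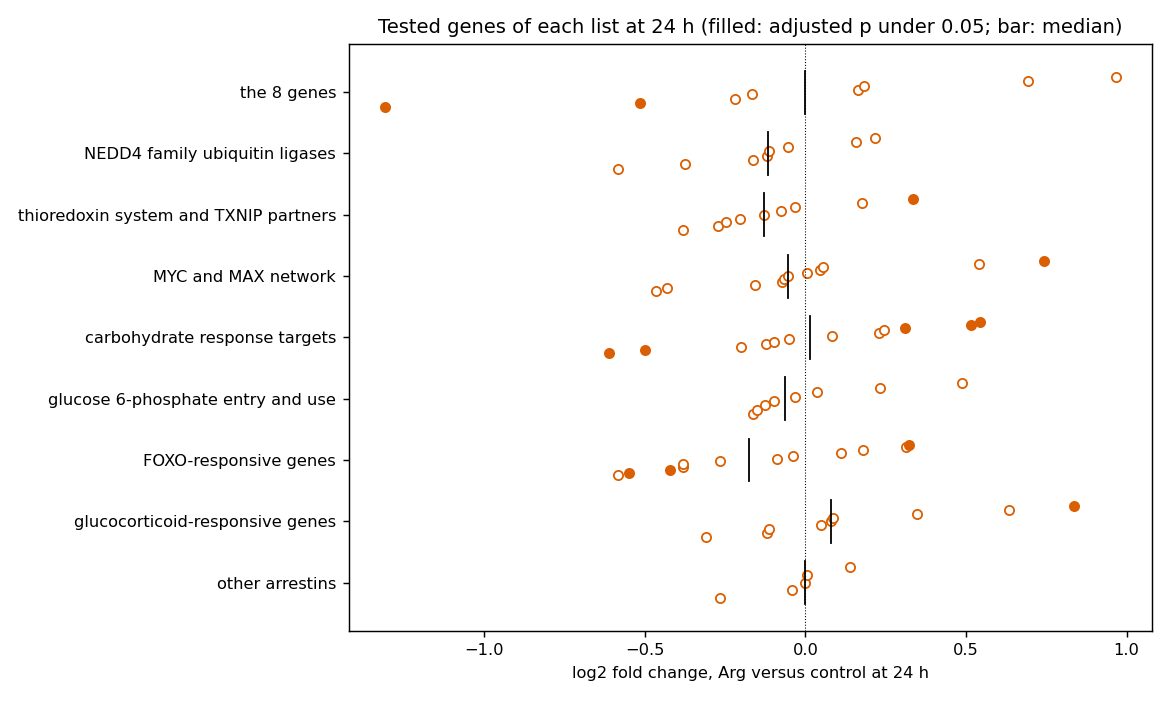
Log2 fold change of Arg versus control at 24 h for the tested genes of each list, from edgeR, with filled points for an adjusted p under 0.05 and a bar at the median of each list. The top line shows the 8 genes themselves. TXNIP at −1.31 lies farther from 0 than any other gene plotted, and the called carbohydrate response targets lie on both sides of 0.

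The genes whose profile was most like that of TXNIP were found by the root-mean-square difference of centred log2 CPM over the 12 libraries, among 10509 genes with a mean of at least 5 CPM. Control replicate B at 48 h was kept, and no ranking without it was made. They were CASC19, SFRP1, AVPI1, FOXC2, and PTGES, with differences between 0.210 and 0.241 on the log2 scale, where the profile of TXNIP itself varied by 0.668. SFRP1 is a secreted WNT inhibitor, FOXC2 a forkhead transcription factor, and PTGES a prostaglandin E synthase. For ARRDC4 the nearest genes were NTAN1, RFNG, CMTM6, ARNTL, and ARSK, with differences between 0.127 and 0.139 against a variation of 0.253 in ARRDC4 itself. ARNTL encodes a core factor of the circadian clock. This measure was not scaled to the size of each profile. With the variation of TXNIP and of ARRDC4 so unlike, the 2 sets of 5 could not share a gene, so their lack of overlap says nothing about pattern.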

How the data were processed

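Poly(A) RNA of 12 TIGK libraries was sequenced as paired-end reads. The authors trimmed reads with fastp, aligned them with STAR to GRCh38/hg38, and counted them with featureCounts, and the deposited counts are raw. Versions, annotation release, and strand setting are not given in the sources used here. Gene coordinates and exonic lengths come from the same table, in which all count columns were used.

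Each pair of groups was fitted over the whole table with edgeR 4.0.16 in R 4.3.3 (TMM, filterByExpr, quasi-likelihood test, no block), and the interaction over all 12 libraries. Adjusted p-values are Benjamini–Hochberg values across every tested gene, and the standard error is the absolute log2 fold change over the square root of F. The scripts were tested on simulated data. CPM uses TMM factors of all libraries. For 3 libraries against 3, exact permutation could not go under p = 0.1. The genes, lists, and motifs were chosen with earlier results of these data known. Each list gave at most 4 names, those with the smallest p among adjusted p under 0.05 for Arg versus control, and TXNIP and ARRDC4 each gave the 5 most alike genes. TXN, SLC2A1, KLF10, HK2, MYC, ACACA, FASN, ACLY, FOXO1, FOXO3, FOXO4, NR3C1, ARRDC5, KRT5, LYZ, TYR, PTPRC, and COL1A1 were named after their values were seen. Alternatives were DESeq2 1.42.0, edgeR with the size factors of DESeq2, scaling by library size, no filter, at least 10 counts in every library, a replicate block, 1 model of all 12 libraries, and leaving out each library. The list of α-arrestin cargo is not reported here.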

Additional observations from a re-analysis of the deposited data

How the results depend on the processing

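Under every alternative that was run, TXNIP was lower with Arg at 24 h at an adjusted p under 0.05 (log2 fold change between −1.38 and −1.18). Without a filter on low counts, the numbers of called members were 1 higher at 24 h (ARRDC3, adjusted p = 0.00323), 1 lower at 48 h (TXNIP, adjusted p = 5.03e-15), 2 higher and 3 lower over time in the control, and 1 higher in the interaction (TXNIP, adjusted p = 0.0260). The deviations of libraries with the same letter from their group means had correlations across genes between −0.091 and 0.188. Libraries with different letters were not compared in this way, so whether the letters pair libraries was not settled. With the replicate block the numbers were 1 higher at 24 h (ARRDC3, adjusted p = 0.0452) and 2 higher and 3 lower over time in the control, and with all 12 libraries in 1 model 3 lower over time in the control and 0 higher over time with Arg. Requiring at least 10 counts in every library left 0 higher over time in the control, because MLXIPL was no longer tested. The cause of the other changes was not tested. At 48 h, calls over all genes also rose without a filter, with the replicate block, and with all 12 libraries in 1 model, as given below. Shares of all genes under these settings are not given for 24 h or over time, so the member counts are not read as a trait of the members. Leaving out each library gave 0 to 1 higher and 1 to 2 lower members at 24 h, 0 to 2 higher and 0 to 2 lower at 48 h, and 0 to 1 higher and 0 to 2 lower over time in the control.

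Directions turned only when a library was left out, in genes that had not passed. At 48 h these log2 fold changes turned to −0.20 and −0.19 (range −0.20 to 0.97) for ARRDC3, 0.14 and 0.067 (−0.15 to 0.14) for ARRDC4, −0.023 and −0.026 (−0.026 to 0.11) for MLX, and −0.12 (−0.12 to 0.30) for MLXIPL. Over time in the control they turned for ARRDC1 (range −0.14 to 0.073) and MLXIP (−0.029 to 0.13). The interaction turned for ARRDC1 (range −0.14 to 0.072), ARRDC2 (−0.073 to 0.040), ARRDC3 (−0.96 to 0.27), and MLXIP (−0.016 to 0.15).

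At 48 h, the number of all genes called higher and lower was 0 and 17, but 41 and 144 with DESeq2, 199 and 374 without a filter, 43 and 141 with the replicate block, 4 and 37 with all 12 libraries in 1 model, and 1152 and 1213 without control replicate B. For the interaction it was 2 and 0, but 8 and 7 with DESeq2 and 51 and 37 without a filter. At 24 h it was 398 and 549, and 126 to 647 and 233 to 882 with a library left out, lowest without control replicate A and highest without control replicate B. Over time in the control, 1431 and 1451 became 422 and 406 without 24 h control replicate A, 497 and 501 without C, and 912 and 920 without 48 h replicate A. Depth limits MLXIPL most, with at most 43 counts in a library.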
